A study of Sus scrofa with 24 samples.

Results

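The gastric response of piglets with a simple starter microbiota to a diet rich in medium chain triglycerides was described from 12 of the 24 arrays of the series. Of these piglets 6 were fed the control diet (SA CON, pigs 13 to 18) and 6 the diet with medium chain triglycerides (SA MCT, pigs 19 to 24). Each array held total RNA of the oxyntic mucosa, the acid-secreting lining of the stomach, of 1 piglet of 3 weeks of age. All piglets were born by caesarean section from sows of a (Great York × Pietrain) × 'Dalland' cross and were fed artificially. All received pasteurized sow colostrum and a starter of Lactobacillus amylovorus, Clostridium glycolicum and Parabacteroides spp., after which the SA piglets were given a placebo. The other 12 piglets (CA CON and CA MCT, 6 each) were given diluted faeces of an adult sow in place of the placebo. They enter here in the estimate of the spread and in the test of whether the diet difference differed between the associations. The MCT diet was made by exchanging soy and palm oils for coconut oil, so that the oil put in and the oils taken out cannot be told apart. The labels give no litter, sex, pen or day of sampling for a piglet, and the spread between piglets therefore holds all of these.

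Coconut oil is rich in fatty acids of medium chain length, which enter mitochondria largely without the carnitine shuttle and are oxidized quickly. The stomach is where they meet the body first: lipases of the stomach release them, and the ghrelin cells of the oxyntic mucosa use octanoic acid to acylate ghrelin, the hormone of hunger, through the enzyme encoded by MBOAT4. The same mucosa holds parietal cells that secrete acid, chief cells that secrete pepsinogens, mucous cells, and immune cells whose number grows after birth under the influence of the microbiota.

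On the scale used here, log2 of the deposited intensity, the array medians lay between 23.1 and 26.4 intensity units before the log was taken. Of the 24 arrays 21 had a median correlation of 0.987 to 0.992 with the other arrays. The 3 below that range were pig 4 (CA CON, 0.946), pig 10 (CA MCT, 0.975) and pig 22 (SA MCT, 0.981). Many results of the SA piglets that rest on pig 22 are given with and without it. The tissue carried the labelled identity: ATP4A and ATP4B, the subunits of the gastric proton pump, and PGC, which encodes pepsinogen C, had log2 intensities from 10.97 (PGC in pig 22) upwards in the 12 SA piglets. Of the neutrophil markers, 0 of 5 measured lay above the brightness that the dimmest 40% of transcript clusters do not exceed (log2 3.96), and for cytotoxic cells 1 of 7 did.

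No gene passed an adjusted p of 0.05 between SA MCT and SA CON by limma, with 10912 genes tested and 0.9997 as the lowest adjusted p. At an unadjusted p under 0.05 there were 222 genes (2.03% of those tested), of which 132 (1.21%) were higher and 90 (0.825%) lower with MCT, where 5% of the genes would be 545.6. The exact permutation test over the 924 regroupings of the 12 piglets put 367 genes under 0.05 without adjustment and 0 after it. Piglets of the 2 groups did not overlap in 7 genes that were higher with MCT (0.0641%) and in 6 that were lower (0.055%). Over all genes the median difference was 0.006 and 52.5% were above 0. What follows therefore describes sizes, directions and the spread over piglets, and no difference of a single gene is called. In bulk mucosa fewer cells of a type and less RNA per cell cannot be told apart.

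The gene with the smallest limma p was NCR3, which encodes the activating receptor NKp30 of natural killer cells. Its log2 intensity lay between 2.63 and 3.02 in SA CON (median 2.82) and between 2.96 and 3.40 in SA MCT (median 3.13). In NCR3 4 of 6 MCT piglets exceeded every CON piglet, at an intensity among the dimmest 40% of clusters. The difference was 0.32 ± 0.084 (SE) on the log2 scale, which is 1.25-fold.

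RAB13, a small GTPase of vesicle traffic to tight junctions, separated the diets completely. Its log2 intensity was 8.73 to 8.96 in SA CON (median 8.85) and 8.44 to 8.60 in SA MCT (median 8.52). It was 1.25-fold lower with MCT, a difference of -0.32 ± 0.086 (SE), and its exact permutation p of 0.00216 (two-sided) is the smallest that 6 against 6 piglets can give. PFDN2, a subunit of the prefoldin complex that hands unfolded actin and tubulin to the chaperonin, was 6.82 to 7.15 in SA CON (median 6.88) and 6.55 to 6.85 in SA MCT (median 6.66), and 5 of 6 MCT piglets were below every CON piglet. CPSF6, a cleavage and polyadenylation factor chosen for the text after its values were seen, was higher in every MCT piglet (7.05 to 7.31) than in every CON piglet (6.79 to 7.02), by 0.21 ± 0.076 (SE).

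Among the other genes with the lowest moderated t, PRPF19, a core component of the spliceosome, differed by -0.35 ± 0.102 (SE) and NCBP2, the small subunit of the nuclear cap-binding complex, by -0.20 ± 0.065 (SE). NOP14, needed to build the small ribosomal subunit, differed by -0.31 ± 0.104 (SE) and GTSE1, expressed in the S and G2 phases of the cell cycle, by -0.33 ± 0.114 (SE). SLC52A3, a riboflavin transporter, had a difference of -0.37 ± 0.126 (SE). The remaining genes of these 10 were SYNDIG1, RIBC1 and LOC100523684, at -0.32, -0.27 and -0.26, all among the dimmest 40%, as was GTSE1. On the other side, the 10 genes with the highest moderated t included TRPA1, a cation channel opened by irritants, at 0.38 ± 0.125 (SE), and MMP3, stromelysin 1, at 0.63 ± 0.217 (SE). RASGRP1, an activator of Ras in T cells, and DHRS9, a dehydrogenase that acts on retinol and steroids, were higher by 0.32 and 0.43. TRDMT1, which methylates transfer RNA, BBS9, a part of the BBSome of cilia, TMEM215, ZNF286A and HYAL4 completed these 10, at 0.29 to 0.40. HYAL4 was among the dimmest 40%.

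**Figure D1:**
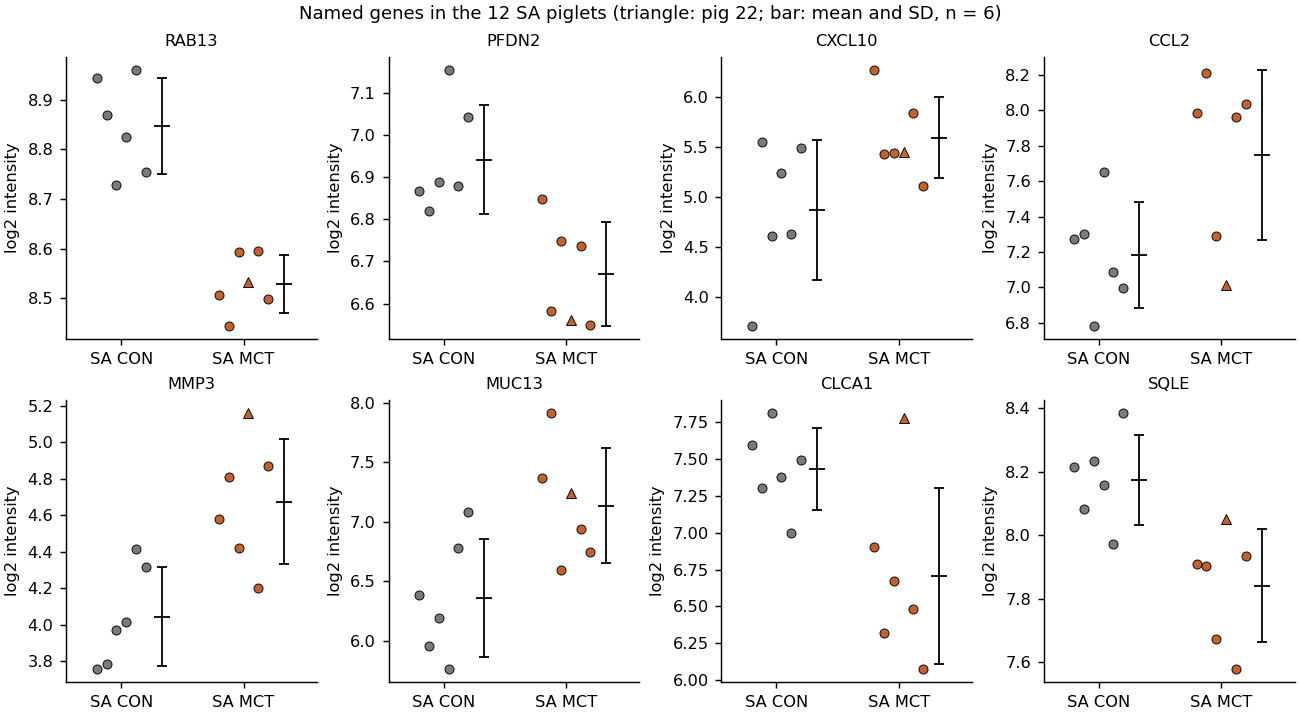
Log2 intensity (y axis) of 8 genes in the 6 SA CON and 6 SA MCT piglets, 1 point per piglet, with the mean and SD of each group beside the points and pig 22 as a triangle. The groups do not overlap in RAB13 and overlap in the other 7 genes, and pig 22 sits with the CON piglets in CCL2 and CLCA1.

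Genes induced by interferons were higher in SA MCT, and for type I interferon most of the size came from 1 piglet. All 24 measured members of the type I interferon list, which holds the antiviral effectors, their sensors and the factors that transcribe them, had a positive difference, with a median of 0.25 against 0.006 over all genes. The mean level of the list was 5.16 to 5.81 in the SA CON piglets and 5.06 to 5.82 in 5 of the SA MCT piglets, while pig 22 stood at 6.76. Without pig 22 the count was 17 of 24 and the median 0.067. Pig 24, on the same diet, had the lowest level of the 12.

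IFIT1, which binds viral RNA that lacks the host's cap, was 3.77 to 5.26 in SA CON (median 4.46), 3.99 to 5.22 in the MCT piglets other than pig 22, and 6.77 in pig 22. Its difference was 0.56 ± 0.327 (SE) with pig 22 and 0.21 without it. OASL, an antiviral protein of the oligoadenylate synthetase family, was 3.48 to 3.80 in SA CON and 5.74 in pig 22. The other MCT piglets reached 3.98 at most. The difference of OASL was 0.42, and 0.086 without pig 22. IFIH1, the cytosolic sensor of long double-stranded RNA, differed by 0.37 ± 0.199 (SE) and by 0.18 without pig 22. IRF9, the DNA-binding subunit of the factor that type I interferon activates, rested less on that piglet. It was 7.50 to 8.06 in SA CON (median 7.64) and 7.66 to 8.30 in SA MCT (median 8.14), and 4 MCT piglets exceeded every CON piglet.

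Genes of the interferon gamma response were higher across several MCT piglets. Of its 18 measured members 16 had a positive difference, 5 of them at an unadjusted p under 0.05 (1.21% of all genes were), with a list median of 0.19 and 0.15 without pig 22. PSMB9, a catalytic subunit of the immunoproteasome, was 4.98 to 5.20 in SA CON (median 5.06) and 4.87 to 5.94 in SA MCT (median 5.53), with 5 of 6 MCT piglets above every CON piglet and pig 24 below them all. GBP1 and GBP2, guanylate-binding proteins that attack the vacuoles of intracellular microbes, differed by 0.37 ± 0.161 and 0.22 ± 0.095 (SE), and in each 4 of 6 MCT piglets lay above the CON range. CASP1, the inflammasome caspase, differed by 0.19 ± 0.089 (SE). UBD, a ubiquitin-like modifier induced by interferon gamma and TNF, was 5.70 to 7.31 in SA CON and 6.37 to 7.71 in SA MCT, a difference of 0.61 ± 0.289 (SE) in which the groups overlapped over most of their range.

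Of the genes of MHC class I presentation 9 of 12 were higher with MCT, with a median of 0.14. SLA-3, a classical class I heavy chain of the pig, was 6.78 to 8.36 in SA CON (median 7.75) and 7.52 to 8.72 in SA MCT (median 8.33), and its difference of 0.52 was 0.33 without pig 15. B2M, the light chain of class I molecules, differed by 0.29 ± 0.150 (SE) and by 0.16 without pig 22, and TAP1, a subunit of the transporter that feeds peptides to class I molecules, by 0.33 and 0.17. Swine leukocyte antigen genes are near copies of one another and differ between animals, so probes may not separate them.

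In MHC class II presentation pig 22 lay below the other MCT piglets. All 11 measured members were higher with MCT, with and without pig 22, and the median went from 0.19 to 0.23 when it was left out. SLA-DRA, the alpha chain of the main class II molecule, was 9.57 to 10.11 in SA CON (median 9.80) and 9.88 to 10.13 in SA MCT (median 10.02). SLA-DQB1 was 7.23 to 7.85 in SA CON (median 7.38) and 7.56 to 7.90 in SA MCT (median 7.71). SLA-DOB, which tempers peptide loading in B cells, differed by 0.35 ± 0.166 (SE), and CIITA, the master transcriptional activator of the class II genes, by 0.14 ± 0.087 (SE).

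**Figure D2:**
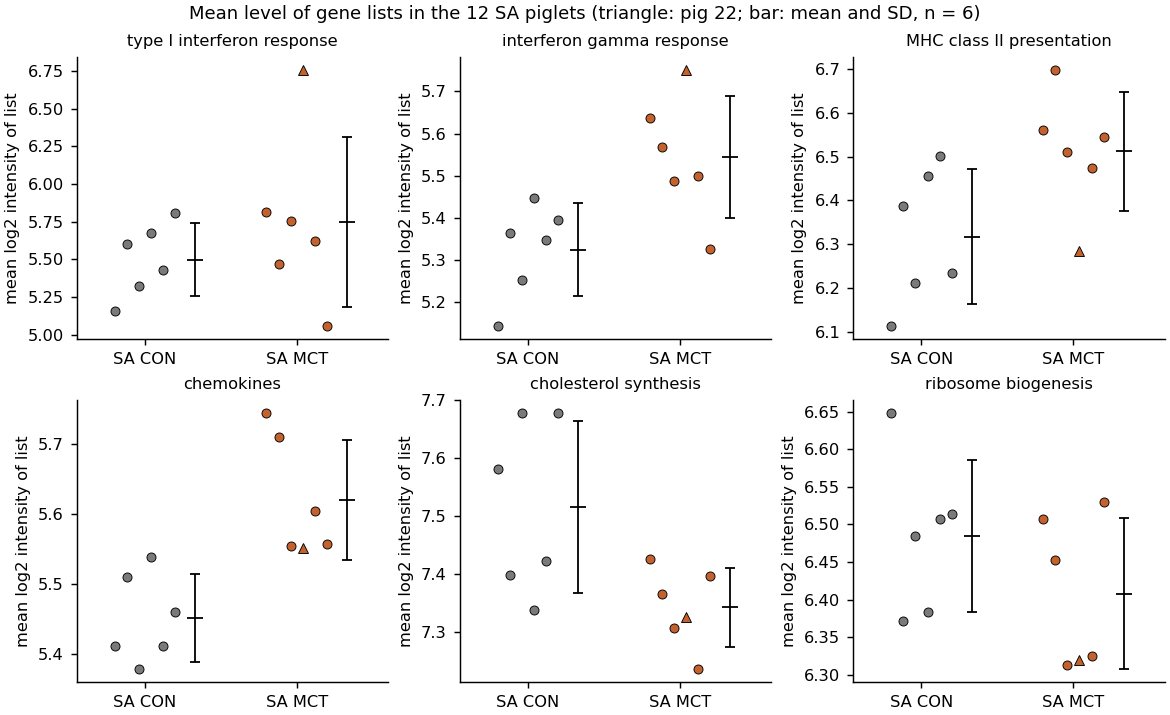
Mean log2 intensity (y axis) of the measured members of 6 gene lists in each of the 12 SA piglets, with the mean and SD of each group beside the points and pig 22 as a triangle. Pig 22 is at 6.76 in the type I interferon list, where the other 11 piglets lie between 5.06 and 5.82, and is below every other MCT piglet in the MHC class II list.

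Chemokines were higher in SA MCT in 21 of 26 measured genes, with a median of 0.18 (0.13 without pig 22) and 4 members higher at an unadjusted p under 0.05, as were 1.21% of all genes. The mean level of the list was 5.38 to 5.54 in SA CON and 5.55 to 5.74 in SA MCT. The lists were written with earlier results of these piglets known, so that this separation is a description. The chemokine and interferon gamma lists share CXCL10, so that their counts are not separate. CCL2, which draws monocytes, was 6.78 to 7.65 in SA CON (median 7.18) and 7.01 to 8.21 in SA MCT (median 7.98). In 4 MCT piglets it exceeded every CON piglet, while pigs 21 and 22 lay within the CON range, and the difference of 0.57 ± 0.204 (SE) was 0.72 without pig 22.

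CXCL10, an interferon-induced ligand of CXCR3 that draws activated T cells, was 3.71 to 5.54 in SA CON (median 4.94) and 5.11 to 6.27 in SA MCT (median 5.45). Pig 13 of SA CON, at 3.71, lay far below the others. The difference of CXCL10 was 0.72 ± 0.297 (SE), and 0.49 without that piglet, with an exact permutation p of 0.0563 (two-sided). CXCL11, a second ligand of CXCR3, differed by 0.34 ± 0.227 (SE) and by 0.22 without pig 22. CXCL2, a neutrophil attractant, was 3.63 to 3.96 in SA CON and 3.79 to 4.39 in SA MCT, with 5 MCT piglets above the CON range at a low intensity. CXCL16, a chemokine anchored in the membrane that binds CXCR6 on T cells, was 8.41 to 8.98 in SA CON (median 8.81) and 8.76 to 9.34 in SA MCT (median 8.94). CXCL8, the main neutrophil chemokine, differed by 0.31 ± 0.167 (SE) with overlapping groups, and by 0.18 without pig 14.

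Genes of T cells were mostly higher as well. Of 21 T cell genes 19 were higher with MCT (median 0.10, and 0.094 without pig 22). All 8 T cell markers used to define the type were measured and all 8 were higher, with a summed intensity of 191 to 264 in SA CON (median 221) and 191 to 332 in SA MCT (median 258). Their part in the interferon and chemokine differences was not tested. CD5, a brake on T cell receptor signals, was 4.28 to 4.97 in SA CON (median 4.56) and 4.64 to 5.13 in SA MCT (median 4.92). LCK, the kinase of the T cell receptor, was above the CON range in 5 of 6 MCT piglets, by 0.19 ± 0.096 (SE), at a low intensity. CD3E, a chain of the T cell receptor complex, differed by 0.27 ± 0.197 (SE) and by 0.17 without pig 22. JAK3, the kinase of receptors that share the common gamma chain, was 4.13 to 4.60 in SA CON (median 4.37) and 4.48 to 4.77 in SA MCT (median 4.59).

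In the list of cytotoxic and natural killer cells 12 of 18 genes were higher (median 0.13, and 0.076 without pig 22). The summed intensity of its 7 defining markers was 137 to 173 in SA CON and 146 to 213 in SA MCT. Of these 7 markers only 1, NKG7, lay above the brightness cut for dim clusters (log2 3.96). The sum was thus mostly the intensity of NKG7, and the sum and NKG7 are not separate observations. The size of the differences in the list came in part from pig 22. KLRG1, an inhibitory receptor of mature effector cells, was 2.34 to 2.74 in SA CON and 3.66 in pig 22, and its difference of 0.37 was 0.23 without that piglet. GZMA, which encodes granzyme A, was 4.90 in pig 22 against 3.06 to 3.76 in SA CON, and its difference of 0.38 was 0.15 without it. KLRK1, which encodes NKG2D, was 0.29 and 0.077. NKG7, a protein of cytotoxic granules and the brightest of those named here, was 6.43 to 6.93 in SA CON (median 6.55) and 6.62 to 7.32 in SA MCT (median 6.92), and did not depend on pig 22 (0.32 with it and 0.37 without it).

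Other leukocyte lists showed less. Of 26 myeloid genes 20 were higher, with a median of 0.052 (0.030 without pig 15), and the 4 defining markers measured summed to 141 to 203 in SA CON and 149 to 209 in SA MCT. MSR1, a scavenger receptor of macrophages, was 4.27 to 4.68 in SA CON (median 4.61) and 4.68 to 5.02 in SA MCT (median 4.87), with 5 of 6 MCT piglets above the CON range. CD86, the costimulatory ligand of antigen-presenting cells, differed by 0.18 ± 0.100 (SE) and by 0.12 without pig 13. B cell and plasma cell genes were each higher in 3 of 8, with medians of -0.017 and -0.021, and neutrophil genes in 5 of 11, with a median of -0.002.

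Sensors of bacterial products and targets of NF-kB were mostly higher by small amounts. In the list of endotoxin and Toll-like receptor sensing 17 of 21 genes had a positive difference (median 0.076), and among targets of TNF and NF-kB 22 of 28 (median 0.070, and 0.042 without pig 20). NLRP3, the inflammasome sensor, was 3.08 to 3.43 in SA CON (median 3.16) and 3.33 to 3.78 in SA MCT (median 3.47), at an intensity among the dimmest 40%. TLR4, the receptor of endotoxin, differed by 0.15 ± 0.120 (SE), or 0.079 without pig 20. Its partners CD14 and LY96 differed by -0.11 ± 0.123 and 0.065 ± 0.20 (SE), and LY96 by -0.028 without pig 22. The exact permutation p of TLR4, CD14 and LY96 was 0.33, 0.47 and 0.73 (two-sided). No direction was thus established for any of these 3 parts of the endotoxin receptor. IL1A, an alarm cytokine of epithelium, was 4.88 to 6.11 in SA CON (median 5.05) and 4.91 to 6.74 in SA MCT (median 5.53), and its difference of 0.49 was 0.28 without pig 20. CFI, the protease that inactivates the complement fragments C3b and C4b, was lower with MCT, at 7.51 to 7.95 in SA CON (median 7.87) and 6.98 to 7.78 in SA MCT (median 7.56).

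Matrix remodelling genes were higher in 23 of 28 (median 0.082, between 0.038 without pig 15 and 0.12 without pig 22). MMP3, which cleaves proteoglycans and activates other matrix proteases, was 3.76 to 4.42 in SA CON (median 3.99) and 4.20 to 5.16 in SA MCT (median 4.69). In MMP3 5 of 6 MCT piglets exceeded every CON piglet, the difference was 1.55-fold and the exact permutation p was 0.00866 (two-sided). TGFB1, a growth factor that drives matrix production and restrains T cells, was 6.13 to 6.85 in SA CON (median 6.50) and 6.71 to 6.97 in SA MCT (median 6.77), so that the MCT piglets lay in the upper part of the CON range or above it. The fibroblast genes themselves had a median of 0.022.

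Large differences with an unadjusted p under 0.05 included 2 genes of mucus. MUC13, a membrane mucin, was 5.76 to 7.08 in SA CON (median 6.29) and 6.59 to 7.92 in SA MCT (median 7.09), which is 1.71-fold higher. In 3 MCT piglets MUC13 exceeded every CON piglet, and the 2 groups overlapped between 6.59 and 7.08. CLCA1, a secreted metalloprotease that shapes the mucus layer, was 7.00 to 7.81 in SA CON (median 7.44) and 6.08 to 6.91 in 5 of the SA MCT piglets, with pig 22 at 7.78. The difference of CLCA1 was -0.72 ± 0.320 (SE), and -0.94 without pig 22.

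SLC5A5, the sodium iodide symporter, which the gastric mucosa shares with the thyroid, was 8.55 to 9.84 in SA CON (median 9.60) and 7.97 to 9.83 in SA MCT (median 8.64), and pigs 21 and 22 lay at the top of the CON range. GSTA1, a glutathione transferase of the detoxifying alpha class, was 9.21 to 10.86 in SA CON (median 10.03) and 9.05 to 9.76 in SA MCT (median 9.46). CA8, a carbonic anhydrase relative without catalytic activity, was 6.09 to 8.03 in SA CON and 6.51 to 8.12 in SA MCT, and neither group was narrow. FMO1, a monooxygenase of foreign compounds, was 5.05 to 5.88 in SA CON (median 5.40) and 4.64 to 5.54 in SA MCT (median 5.03).

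The ghrelin system did not stand out. GHRL, which encodes ghrelin, was 9.41 to 9.98 in SA CON (median 9.95) and 9.50 to 10.18 in SA MCT (median 9.89), a difference of 0.03 ± 0.155 (SE). MBOAT4, whose product attaches octanoic acid to ghrelin, was 3.98 to 4.87 in SA CON (median 4.48) and 4.32 to 5.10 in SA MCT (median 4.84). In 3 MCT piglets it was above the CON range, and the difference was 0.28 ± 0.182 (SE). Leaving out each piglet in turn put the difference of MBOAT4 between 0.18 (without pig 16) and 0.36. The receptor GHSR differed by 0.11 ± 0.103 and the prohormone convertase PCSK1 by -0.02 ± 0.262 (SE). In the list 3 of 7 genes were higher, with a median of -0.016, and without pig 22 it was 6 of 7 with a median of 0.087.

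Lists of genes that sense or burn fatty acids also had medians near that of all genes. In the list of activation and oxidation of medium chain fatty acids 7 of 21 were higher (33.3%, against 52.5% of all genes), with a median of -0.017. In that of peroxisomal oxidation and PPAR targets it was 9 of 19 (median -0.018). HADHA, the alpha subunit of the mitochondrial trifunctional protein, was 8.52 to 8.90 in SA CON (median 8.61) and 8.25 to 8.59 in SA MCT (median 8.46), with 5 of 6 MCT piglets below every CON piglet. ACADL, the long-chain acyl-CoA dehydrogenase, was 5.20 to 5.71 in SA CON and 4.83 to 5.37 in SA MCT, again with 5 MCT piglets below every CON piglet, and its difference of -0.21 was -0.13 without pig 14. ACAA2, the last enzyme of mitochondrial beta-oxidation, differed by -0.23 ± 0.146 (SE). CPT1A, the gate of the carnitine shuttle, differed by -0.09 ± 0.078 (SE) and was named after its values were seen. DECR1, which prepares unsaturated fatty acids for oxidation, and ACSS1, which activates acetate in mitochondria, differed the other way, by 0.09 and 0.16.

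Among the carriers and sensors, CD36, which binds long-chain fatty acids at the cell surface, was 6.48 to 7.25 in SA CON (median 7.06) and 6.53 to 6.93 in SA MCT (median 6.70), a difference of -0.28 ± 0.131 (SE). FFAR1, a receptor of medium and long chains, differed by -0.13 ± 0.126, and by -0.01 without pig 22, which lay far below the other MCT piglets. FFAR2, a receptor of short chains, and PPARA, the nuclear receptor of fatty acids, differed by -0.074 ± 0.117 and -0.018 ± 0.191 (SE). Of the 7 genes in the list of fatty acid receptors 3 were higher, with a median of -0.018. Without pig 22 it was 4 of 7, with a median of 0.039. Of the PPAR targets, PLIN2, the coat of lipid droplets, was 6.29 to 6.76 in SA CON and 6.70 to 6.81 in the MCT piglets other than pig 22, and ANGPTL4, an inhibitor of lipoprotein lipase, was below the CON range in 4 of 6 MCT piglets, by -0.25 ± 0.148 (SE).

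Fatty acid synthesis showed no common direction, with 12 of 19 genes higher and a median of 0.022. SCD, the stearoyl-CoA desaturase, was 8.11 to 8.85 in SA CON (median 8.49) and 7.83 to 9.15 in SA MCT (median 8.42). ACACA, which makes malonyl-CoA, differed by 0.05 ± 0.068 (SE), and the desaturases FADS1 and FADS2 by 0.11 ± 0.210 and -0.07 ± 0.113 (SE). THRSP, a lipogenic factor, was 4.27 to 5.51 in SA CON and 4.35 to 6.04 in SA MCT, and MLXIPL, the carbohydrate-response transcription factor, differed by -0.11 ± 0.113 (SE).

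Cholesterol synthesis was lower in all 12 measured genes, where 47.5% of all genes were below 0. The list median was -0.16, and leaving out each piglet in turn put it between -0.22 and -0.14. The mean level of the list was 7.34 to 7.68 in SA CON and 7.24 to 7.43 in SA MCT, so that the MCT piglets lay within a narrower band in the lower part of the CON range or under it. SQLE, squalene epoxidase, was 7.97 to 8.38 in SA CON (median 8.19) and 7.58 to 8.05 in SA MCT (median 7.91). In SQLE 5 of 6 MCT piglets were below every CON piglet, the level was 1.26-fold lower, and the exact permutation p was 0.00433 (two-sided), which was 1 after adjustment over all genes. HMGCS1, which makes the precursor of mevalonate, was 8.58 to 9.30 in SA CON (median 8.99) and 8.52 to 8.87 in SA MCT (median 8.73). ACAT2, which condenses acetyl-CoA at the start of the pathway, differed by -0.30 ± 0.195 (SE), FDPS, which makes farnesyl pyrophosphate, by -0.16 ± 0.103 (SE), and NSDHL, a late sterol enzyme, by -0.15 ± 0.091 (SE). FDPS was at -0.099 without pig 18 and NSDHL at -0.086 without pig 22.

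**Figure D3:**
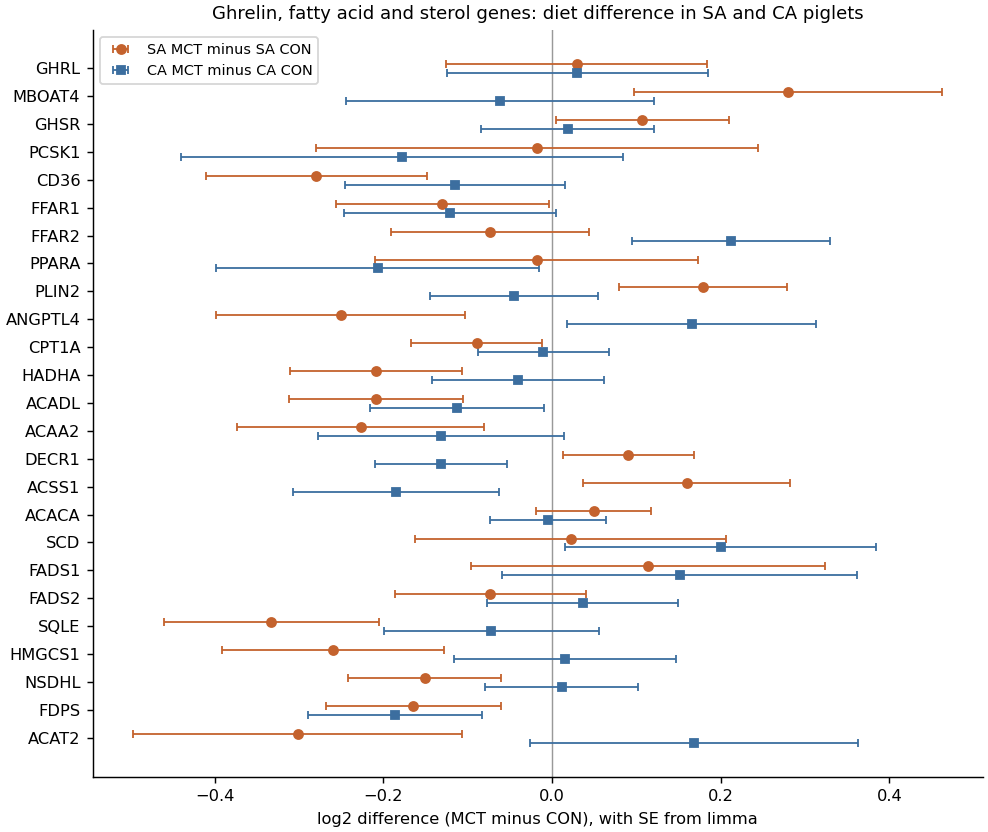
Log2 difference between MCT and CON (x axis) with its SE for genes of the ghrelin system, fatty acid sensing, oxidation and synthesis, and cholesterol synthesis, in SA piglets (circles) and CA piglets (squares), 6 piglets per group. The 5 sterol genes at the bottom are below 0 in SA, from -0.33 for SQLE to -0.15 for NSDHL, and GHRL is at 0.03 in both.

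Genes for folding and exporting proteins were mostly lower, with small list medians. In the unfolded protein response 21 of 27 were lower (median -0.089, and -0.043 without pig 13), in protein secretion 17 of 19 (median -0.057) and among heat shock genes 15 of 18 (median -0.062). Without pig 13 it was 15 of 19 (median -0.037) in protein secretion and 11 of 18 (median -0.022) among heat shock genes. Without pig 23 the secretion median was -0.036, and without pig 22 heat shock genes were lower in 10 of 18 (median -0.052). PDIA4, a disulfide isomerase of the endoplasmic reticulum, was 9.67 to 10.16 in SA CON (median 9.88) and 9.61 to 9.79 in SA MCT (median 9.70), and its relative PDIA6 differed by -0.17 ± 0.079 (SE). DNAJB11, a cochaperone of BiP, was 7.53 to 8.24 in SA CON (median 7.76) and 7.14 to 7.64 in SA MCT (median 7.59). SDF2L1, another partner of BiP, was 6.93 in pig 13 of SA CON, 4.83 to 5.58 in the other CON piglets and 4.62 to 5.34 in SA MCT, and its difference of -0.57 was -0.29 without pig 13. DERL3, which helps to retrieve misfolded proteins, differed by -0.33 ± 0.161 (SE) and by -0.17 without pig 13. SESN2, a stress-induced gene of the amino acid response, went the other way, at 4.19 to 4.71 in SA CON (median 4.36) and 4.47 to 4.99 in SA MCT (median 4.64). The highest difference in the unfolded protein response list, in a gene not named here, was 0.67, larger in size than the lowest (-0.57). Of the transport genes, KDELR3, a receptor that returns chaperones to the endoplasmic reticulum, differed by -0.24 ± 0.111 (SE), and USO1, COPB2, SAR1A and LMAN1, which form, tether or load transport vesicles, by -0.16 to -0.10, of which USO1 and COPB2 were at -0.077 and -0.078 without pig 13.

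Genes of ribosome building and of DNA replication were lower by similar amounts. Of 24 ribosome biogenesis genes 20 had a negative difference (median -0.066), and of 17 DNA replication genes 14 did (median -0.078, between -0.15 without pig 17 and -0.027 without pig 15). NCL, which encodes nucleolin, was 7.27 to 7.74 in SA CON (median 7.52) and 6.90 to 7.53 in SA MCT (median 7.23). HEATR1, NOLC1 and WDR75, nucleolar proteins of ribosomal RNA transcription and processing, differed by -0.14, -0.18 and -0.11, and without 1 piglet NOLC1 was at -0.10 (pig 21) and WDR75 at -0.072 (pig 18). CDC6, which loads the replicative helicase, was 4.48 to 5.19 in SA CON (median 4.93) and 4.22 to 4.95 in SA MCT (median 4.55), and MCM4, a subunit of that helicase, differed by -0.21 ± 0.126 (SE). Mitosis genes were lower in 16 of 21 with a median of -0.031, and single piglets decided the median's sign, since it was -0.14 without pig 17 and 0.064 without pig 18.

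Of 16 parietal genes 10 were higher (median 0.014), and without pig 18 it was 2 of 16 with a median of -0.064. Genes of chief and mucous neck cells were lower in 7 of 10, with a median of -0.074 and a lowest member at -0.50, and the median was -0.044 without pig 13. ATP4A was 11.56 to 11.87 in SA CON and 11.78 to 11.92 in SA MCT, a difference of 0.04 ± 0.062 (SE), and ATP4B differed by 0.02 ± 0.067 (SE). The potassium channel genes KCNE2 and KCNJ15, whose channels return potassium to the pump, differed by 0.20 ± 0.176 and 0.17 ± 0.119 (SE), and by 0.050 and 0.034 without pig 18. In both, and in the mean level of the parietal list (8.14 against 8.70 to 8.90 in the other CON piglets), pig 18 of SA CON was the lowest of the 12. GIF, which encodes intrinsic factor, differed by -0.17 ± 0.229 and PGC by -0.05 ± 0.099 (SE). ACTA2, smooth muscle actin, was below the CON range in 4 of 6 MCT piglets, by -0.16 ± 0.089 (SE), although the smooth muscle list as a whole had 5 of 9 genes higher. The genes that the study discusses by name were higher in 20 of 26, with a median of 0.075, and in 12 of 26, with a median of -0.004, without pig 18. Since they were chosen on these samples, the count is no independent evidence.

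The diet difference in SA piglets was set beside that in CA piglets, which shares no samples with it. The labels speak of separate rooms for the 2 associations, in which case room and association cannot be told apart in this comparison. In CA piglets 0 genes passed an adjusted p of 0.05 by limma, 328 (3.01%) had an unadjusted p under 0.05, and 50.6% of all genes were above 0. The test of the difference between the diet differences, the interaction, also had 0 genes past an adjusted p of 0.05 (lowest 0.9999), and 276 (2.53%) with an unadjusted p under 0.05, of which 137 (1.26%) were larger and 139 (1.27%) smaller in SA. No gene was thus shown to answer the diet differently in the 2 associations.

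Some lists had opposite signs in the 2 associations, which was described and not tested for a list. In CA piglets 20 of the 24 type I interferon genes were lower with MCT, with a median of -0.33, and without pigs 4 and 10 it was 21 of 24 with a median of -0.18. The diet difference was larger in SA than in CA for 23 of the 24, by a median of 0.57, and for 22 of 24 by 0.25 without pigs 4, 10 and 22. IFIT1 differed by 0.56 in SA and -0.33 in CA, and CXCL11, at a low intensity, by 0.34 and -0.38. The SA difference minus the CA difference was 0.89 for IFIT1 and 0.72 for CXCL11. Under the alternatives other than leaving out single piglets it ran from 0.43 to 0.92 for IFIT1 and from 0.42 to 0.77 for CXCL11. Opposite signs also stood in ribosome biogenesis, lower in 20 of 24 in SA and higher in 21 of 24 in CA (median 0.12, and 0.041 without pigs 4 and 10), and in the unfolded protein response, lower in 21 of 27 in SA and higher in 18 of 27 in CA (median 0.044). The cholesterol list was lower in 7 of 12 in CA with a median of -0.055, and without pigs 4 and 10 it was higher in 8 of 12 with a median of 0.010. MHC class II genes were higher with MCT in 8 of 11 in CA (median 0.069), and in 6 of 11 (median 0.0050) without pigs 4 and 10. The list of medium chain fatty acid oxidation was lower in 14 of 21 in SA and in 20 of 21 in CA (median -0.070). Without pigs 4 and 10 it was lower in 21 of 21 in CA (median -0.077).

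Of the single genes, VMA21, an assembly factor of the vacuolar proton pump, had the highest interaction t. It was 4.93 to 5.46 in SA CON and 5.25 to 5.39 in SA MCT, a difference of 0.13 ± 0.085 (SE), or 0.081 without pig 17, against -0.32 in CA. ATP6V1C2, a subunit of the same pump, was at a low intensity and differed by 0.15 in SA (0.067 without pig 22) and -0.35 in CA. Its highest CA CON piglet was pig 4 (3.31) and its lowest CA MCT piglet was pig 10 (2.37). Its SA difference minus its CA difference was 0.50, and 0.295 to 0.50 under the alternatives other than leaving out single piglets. FLT3LG, a growth factor of dendritic cells, differed by 0.27 in SA and -0.29 in CA. FOXL1, a transcription factor of the connective tissue under the epithelium, differed by 0.22 and -0.19. On the other side FMO1 differed by -0.41 in SA and 0.33 in CA, UPK2, a protein of the urothelial surface, by -0.15 (-0.093 without pig 22) and 0.34, and ANGPTL7 by -0.05 and 0.43. MMP3 differed by 0.63 and -0.29, JAK3 by 0.23 and -0.15, and SDF2L1 by -0.57 and 0.34. MUC13 was higher with MCT in both, by 0.78 and 0.65.

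**Figure D4:**
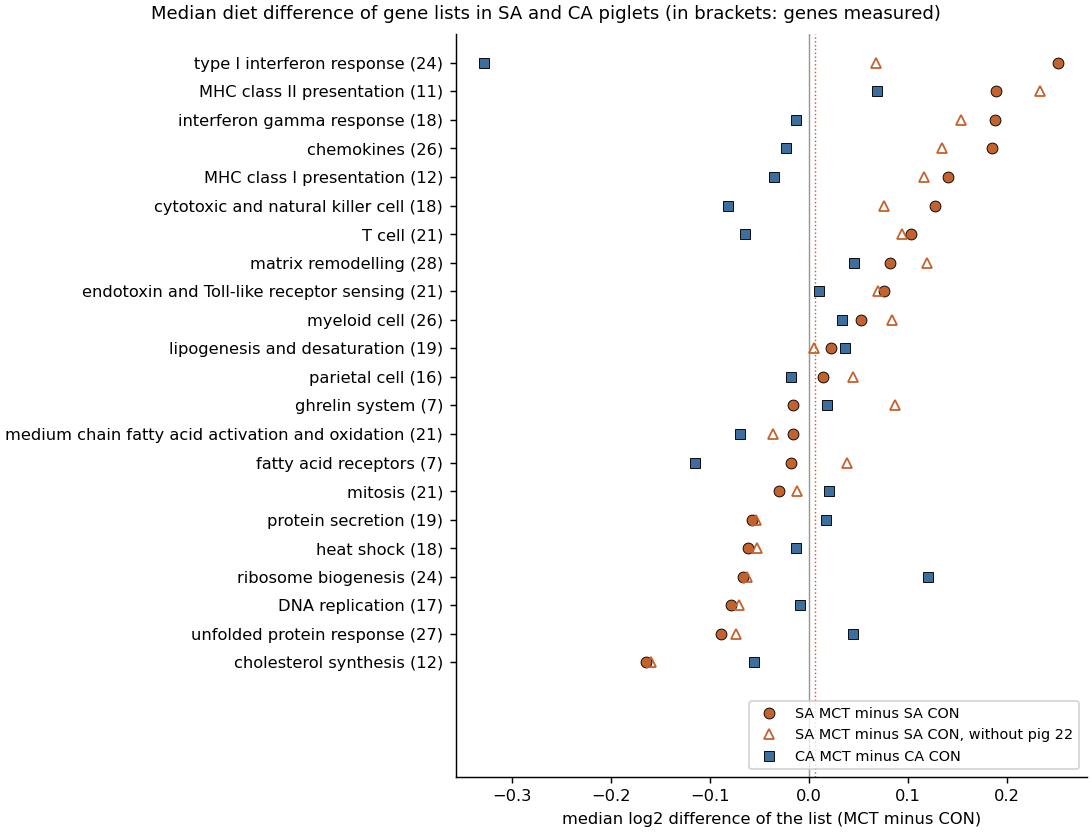
Median log2 difference between MCT and CON (x axis) of 22 gene lists, with the number of measured genes in brackets, in SA piglets (circles), in SA piglets without pig 22 (open triangles) and in CA piglets (squares), and the median of all genes in SA as a dotted line. The type I interferon list lies at 0.25 in SA, 0.067 without pig 22 and -0.33 in CA, and the cholesterol list at -0.16 in SA with or without pig 22.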

How the data were processed

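Total RNA of the oxyntic mucosa was hybridised by the authors to Affymetrix Porcine Gene 1.1 ST arrays, 1 per piglet, and the deposited values are RMA-normalized intensities on a linear scale, not background-free levels; log2 was taken here. Of 27558 transcript clusters, 11982 carried 1 gene symbol in the platform annotation, 373 several and 15203 none; the brightest cluster stood for each of 10912 symbols. limma 3.58.1 in R 4.3.3 was fitted to all 24 arrays with 4 group means, Benjamini-Hochberg adjustment over all genes and a threshold of 0.05; errors are its SE. The exact permutation test used the 12 SA piglets. The fit was tested on simulated data. Depth does not apply, and 6 arrays per group limit the precision.

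Lists were described by counts and medians, with no test. Members and lists were chosen with earlier results of these data known. Named genes were the 10 highest and lowest moderated t, the 5 highest and lowest differences at an unadjusted p under 0.05, the 5 highest and lowest interaction t, up to 5 members per list by t, and every member of the ghrelin, fatty acid receptor, lipogenesis and study-named lists, and not every gene that the rule allows is named. No genome was used, so no positions are given. Alternatives were quantile normalization, array weights, an intensity trend, a filter on dim clusters, the mean over clusters, all clusters, SA arrays alone and leaving out piglets.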

Additional observations from a re-analysis of the deposited data

Results flagged for a closer look

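Among 133 named genes and 48 lists in the 2 groups of SA piglets, 362 sets of 6 values were searched for a highest or lowest piglet whose gap to its nearest neighbour, as a share of the whole range, passed Dixon's critical value. This held in 30 sets, where about 1 in 20, or 18.1, would be met by chance in independent sets chosen without regard to their values. Many of the genes were chosen on these values and the sets share piglets and genes, so that the 2 numbers do not test an excess.

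Pig 22 of SA MCT had 8 of the flagged sets. OASL was 5.74 there against 3.42 to 3.98 in the other MCT piglets. FFAR1 was 3.68 against 4.36 to 4.43, MLXIPL 3.48 against 4.08 to 4.28 and PLIN2 6.39 against 6.70 to 6.81. The mean level of the ghrelin list was 6.03 in pig 22 against 6.38 to 6.53, that of chief and mucous neck cells 7.03 against 7.42 to 7.62, that of endothelium 6.41 against 6.62 to 6.74 and that of the genes discussed in the study 7.30 against 7.40 to 7.45. The array of the same piglet also had a lower correlation with the others (0.981).

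Pig 18 of SA CON had 7. CASP1 was 7.07 there against 7.26 to 7.38 in the other CON piglets, KCNJ15, a potassium channel of parietal cells, 8.56 against 9.19 to 9.47, and PPARA 6.79 against 7.19 to 7.39. The parietal list was at 8.14 against 8.70 to 8.90, the fatty acid receptor list at 5.60 against 5.79 to 5.88, the list of ketone, glucose and lipid transport at 6.10 against 6.23 to 6.31, and the antioxidant list was high, at 8.89 against 8.21 to 8.39.

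Pig 14 of SA CON was high in ACADL (5.71), CAT, which encodes catalase (9.82), and THRSP (5.51) and low in CFI (7.51). Pig 13 was low in GHRL (9.41) and GBP1 (3.36) and high in SDF2L1 (6.93). Single values stood apart in pig 15 for MSR1 (4.27, low), pig 16 for HADHA (8.90, high) and pig 17 for SLC5A5 (8.55, low). In SA MCT pig 20 was high in the lipogenesis list (6.82) and the list of chemokine receptors (4.63), pig 21 was high in ATP4A (11.92) and low in DNAJB11 (7.14), and pig 23 was low in RIBC1 (3.25).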

How the results depend on the processing

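Under every setting tried 0 genes passed an adjusted p of 0.05 by limma, in the diet comparison and in the interaction, and the counts at an unadjusted p under 0.05 moved. Against 132 higher and 90 lower, array weights gave 313 and 197, all clusters whether named or not 306 and 234, the fit without pigs 4 and 10 gave 249 and 187, and that without pigs 4, 10 and 22 gave 355 and 196. The last 2 settings were chosen after seeing the data. The interaction count of 276 became 485 with array weights and 513 without pigs 4, 10 and 22. Of 48 list medians 45 moved by less than 1 SD between piglets under the alternatives run for lists, which were the mean over clusters, no dim clusters, a second quantile normalization, no pigs 4, 10 and 22, and no single SA piglet. That SD, of the list level within groups, was 0.43 for type I interferon and 0.27 for mitosis. The type I interferon median of 0.25 was 0.067 without pig 22 and still counted among the 45. So did the mitosis median, which ran from -0.14 to 0.064 when each piglet was left out. A median that moved by less than 1 SD could thus change sign. The neutrophil median of -0.002 was 0.094 without the dimmest 40% of clusters and ran from -0.011 to 0.064 when each piglet was left out. In the same way the apoptosis median of 0.071 ran from 0.054 to 0.13 and that of mast cells and eosinophils (0.090) from 0.031 to 0.12.

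Of 140 gene values 130 kept their direction under the alternatives run for genes, and the cause of the other 10 changes of sign was not tested. With array weights PCSK1 was 0.081, SCD -0.036 and ATP4B -0.0022, and after a second quantile normalization ATP4B was -0.0057. Without pigs 4, 10 and 22 LY96 was -0.028, PCSK1 0.060, PPARA 0.073, SCD -0.0099, MLXIPL 0.0094 and ATP4B -0.011. All of these values were the same without pig 22 alone, since pigs 4 and 10 are CA piglets and do not enter the SA difference. When each piglet was left out in turn, LY96 ran from -0.028 to 0.18, GHRL from -0.061 to 0.11, PCSK1 from -0.085 to 0.060, FFAR2 from -0.16 to 0.00057, PPARA from -0.10 to 0.073, SCD from -0.11 to 0.15, THRSP from -0.00021 to 0.39, MLXIPL from -0.15 to 0.0094, ATP4A from -0.0014 to 0.060 and ATP4B from -0.020 to 0.047.

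No paired analysis was possible because the piglets' numbers are unique, so that no number is shared between groups. Signals near the background of the array, as for NCR3 and the cytotoxic genes, compress differences, and litter, sex, pen and day of sampling could not be fitted.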

Other observations

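Groups of genes not described above are given beside 52.5% higher and a median of 0.006 over all genes. Interleukins and their receptors were higher with MCT in 25 of 40 (median 0.022), chemokine receptors in 7 of 13 (median 0.038), complement and coagulation genes in 14 of 27 (median 0.005) and genes of STAT3 and the acute phase in 16 of 25 (median 0.021). IL2 and STAT5 signalling had 18 of 23 higher with a median of 0.053. Apoptosis genes were higher in 12 of 19 (median 0.071), among them PMAIP1, a BH3-only activator of cell death, at 2.81 to 3.54 in SA CON (median 3.18) and 2.92 to 4.20 in SA MCT (median 3.46), where its difference of 0.35 was 0.21 without pig 22.

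Genes of oxidative phosphorylation were higher in 13 of 22 in SA (median 0.024, and -0.021 without pig 18) and in 2 of 22 in CA (median -0.077). Antioxidant genes were higher in 13 of 20 (median 0.058, and 0.006 without pig 17), whereas CAT and GSTA1 of the same list were lower, by -0.14 ± 0.066 and -0.56 ± 0.231 (SE), and CAT by -0.086 without pig 14. Enteroendocrine and neuronal genes were higher in 11 of 23 (median -0.018), and in 14 of 23 (median 0.043) without pig 22. Surface mucous genes were higher in 6 of 13 (median -0.017). Genes of red blood cells were higher in 4 of 5 (median 0.13, and 0.071 without pig 23), those of squamous epithelium in 4 of 7 (median 0.010) and those of pancreas and intestine in 9 of 14 (median 0.073, and 0.032 without pig 14), most of them at low intensity.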
